A study of Mus musculus with 4 samples.

Results

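The CTCF sites described here are the half-masked CTCF sites: CTCF peaks on mouse autosomes with at least 50% of their bases in repeat-masked sequence. They were chosen by the measured peak lists. A peak of CTCF replicate 1 had to overlap a peak of CTCF replicate 2 by at least 1 bp, and at least 50% of its bases had to be written in lower case, the mark of repeats, in the mm10 reference. This rule found 1452 sites among 20866 shared autosomal CTCF peaks (6.96%), which leaves 19414 remaining shared peaks as the set they are compared with. CTCF and RAD21 binding had been mapped by ChIPmentation, a chromatin immunoprecipitation in which the library is cut by the Tn5 transposase. The tissue was whole limbs at E12.5, and the embryos, of strain B6CBAF1, were TgN(38-40)/Wt; del(CS38-40)-/-. These embryos lack region CS38-40, a boundary element of the HoxD locus, at its own place on both alleles, and carry it on 1 allele as a random fosmid insertion on chromosome 10, from a single transgenic line, and they are called TgN3840 from here on. Each antibody had 2 biological replicates, and a single wild-type RAD21 ChIP-seq library of E12.5 whole limbs came from an earlier study.

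CTCF is a zinc-finger protein that binds a long DNA motif and halts the cohesin complex as cohesin extrudes chromatin loops. RAD21 is the kleisin subunit of cohesin, so a RAD21 peak on a CTCF peak marks a place where cohesin accumulates. Transposable elements can carry CTCF motifs, and in rodents the short interspersed B2 elements are known to have spread CTCF motifs through the genome. The reference used here marks repeats but gives no repeat family, so the sequences below are named only by their group.

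The sequences come first, because many half-masked sites with a CTCF motif shared the bases around it. A 19-bp motif model was learned from 2000 of the remaining peaks, so that no half-masked site shaped it, and a site was said to have a motif where a match within 50 bp of its summit scored at least 9.91 bits, the score that 5% of flanking windows reached. Of the 691 half-masked sites with such a motif, 356 (51.5%) fell into 9 groups with at least 60% identity over the 40 bases on each side of the motif, which was itself left out. Among the 10424 remaining peaks with a motif, 246 (2.36%) fell into groups under the same procedure. The share in groups depended on the setting, and was 21.4% at 70% identity (0.480% of remaining peaks) and 32% over 60 bases on each side (0.710%). The consensus of the 2 largest groups and of the eighth group is given 5′ to 3′ with the motif in capitals.
group 1: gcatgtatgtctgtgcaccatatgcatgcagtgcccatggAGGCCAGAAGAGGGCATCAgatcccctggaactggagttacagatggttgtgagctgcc
group 2: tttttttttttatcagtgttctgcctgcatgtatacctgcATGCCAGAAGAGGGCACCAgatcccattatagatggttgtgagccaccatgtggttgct
group 8: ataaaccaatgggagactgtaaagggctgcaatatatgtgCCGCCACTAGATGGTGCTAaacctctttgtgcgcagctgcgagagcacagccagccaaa

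Group 1 held 192 sites, 27.8% of the half-masked sites with a motif, and their mean identity to the consensus was 71.9%. Group 2 held 43 sites with a mean identity of 75.7%. Groups 3, 4, 5, 7 and 9, with 34, 31, 23, 9 and 6 sites, carried the group 1 motif bases in their consensus with shifted or more divergent flanks. Group 6 held 10 sites with other bases at the called motif. Read on the opposite strand, its consensus resembled that of group 2, and most of the group 2 motif bases lay in its flank. Group 8 held 8 sites that formed a group of their own and had the highest mean identity of the 9 groups, 86.4%. The 6 group 1 sites of lowest mean rank by fold over both CTCF lists are shown to let the likeness be seen at single places, as the motif with 20 bases on each side, on the strand of the motif and with mm10 coordinates.
chr11:61410314-61410372: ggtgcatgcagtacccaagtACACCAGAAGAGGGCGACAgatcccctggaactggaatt
chr13:21928721-21928779: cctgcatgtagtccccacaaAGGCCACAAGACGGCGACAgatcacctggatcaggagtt
chr13:47576679-47576737: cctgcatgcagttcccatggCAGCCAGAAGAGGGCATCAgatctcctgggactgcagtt
chr5:146567236-146567294: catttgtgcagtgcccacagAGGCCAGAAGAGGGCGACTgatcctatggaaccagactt
chr3:121550540-121550598: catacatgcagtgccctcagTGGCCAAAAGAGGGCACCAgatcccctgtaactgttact
chr9:90077057-90077115: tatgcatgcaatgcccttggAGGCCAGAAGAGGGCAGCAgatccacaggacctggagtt

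The likeness reached beyond the sites with a motif call. When the 300 bases around the centre of every shared peak were aligned with gaps to the consensus of groups 1 and 2, 1117 of 1452 half-masked sites (76.9%, 95% Wilson interval 74.7 to 79.0) reached at least 70% identity over at least 60 bases, against 886 of 19414 remaining peaks (4.56%, 4.28 to 4.87). Over all shared peaks the share was 9.60%. Since the consensus was built from half-masked sites, the first share describes them and is no independent result. In windows 2 kb to the side the same alignment was found at 4.27% of the half-masked sites and 3.05% of the remaining peaks. The aligned half-masked sites had a median identity of 78.8%, with a range from 70% to 94.9%. No site thus matched the consensus at every base.

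The half-masked sites were weaker CTCF peaks than the remaining ones. Fold is the enrichment that the MACS2 peak caller gave each summit over its local expectation, and its rank is given here as a percentile of the list, with 0 for the strongest peak. The median rank of the half-masked sites was 65.2 in replicate 1 and 59.5 in replicate 2, against 43.6 and 39.3 for the remaining peaks. The median fold in replicate 1 was 5.82 at half-masked sites and 6.83 at remaining peaks, and in replicate 2 it was 6.94 and 8.50. Of the half-masked sites, 43.7% lay in the weakest quartile of the shared peaks and 9.92% in the strongest, against 23.5% and 26.2% of the remaining peaks. They were also found less evenly in the replicates, since 73.4% of all half-masked replicate 1 peaks had a replicate 2 peak, against 90.5% of the other replicate 1 peaks. Because both CTCF lists entered the choice of the sites, these ranks and folds are a description without a test.

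The masked share itself ran from 50.0% to 100% among the chosen sites, with a median of 63.6%. The 3 sites just inside the threshold, at a masked share of 50.0%, were an intronic site of Nrd1 on chromosome 4 (fold 11.2 and 12.3 in CTCF replicates 1 and 2), an intronic site of Clec18a on chromosome 8 (8.26 and 14.7) and an intergenic site 6047 bp from a start of Olfr54 on chromosome 11 (10.4 and 9.72). The 3 peaks just outside, at 49.8% to 49.9%, were an intronic peak of Specc1l on chromosome 10 (6.79 and 9.65) and intergenic peaks nearest to Chd1l on chromosome 3 (7.15 and 5.86) and to Zfp853 on chromosome 5 (5.76 and 6.80).

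The CTCF motif was slightly less frequent at half-masked sites than at remaining peaks. It was found within 50 bp of the summit at 691 of 1452 half-masked sites (47.6%, 45.0 to 50.2), against 10424 of 19414 remaining peaks (53.7%, 53 to 54.4). The share over all shared peaks was 53.3%, and in windows 600 bp to the side of half-masked sites it was 4.79%. The difference, half-masked minus remaining, was -6.10 percentage points, with a 95% Newcombe interval of -8.76 to -3.44 that covers counting error only. The 2000 peaks that the model was learned from are counted among the remaining peaks, and no half-masked site was among them. The 2000 peaks were the strongest of the remaining peaks by fold in replicate 2, after the first 100. This can raise the motif share of the remaining set, above all among its strong peaks, and so bears on the differences by quartile below. The size of this effect was not tested. The difference depended on how the motif was searched. Within 100 bp of the summit both sets had a share of 82.9% (difference -0.04, -2.13 to 1.89). With a model learned from the half-masked sites themselves, the order turned round, to 49.2% of half-masked sites and 31% of remaining peaks. By CTCF rank, the difference was -14 percentage points (-22.2 to -5.85) in the strongest quartile and 1.2 (-2.91 to 5.35) in the weakest. In the strongest quartile 50.0% of half-masked sites (41.9 to 58.1) and 64% of remaining peaks (62.7 to 65.3) had a motif, whereas the shares in the weakest quartile were 46.2% (42.4 to 50.1) and 45.0% (43.6 to 46.5). Both are shown in the plot of rank and motif by quartile.

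**Figure D1:**
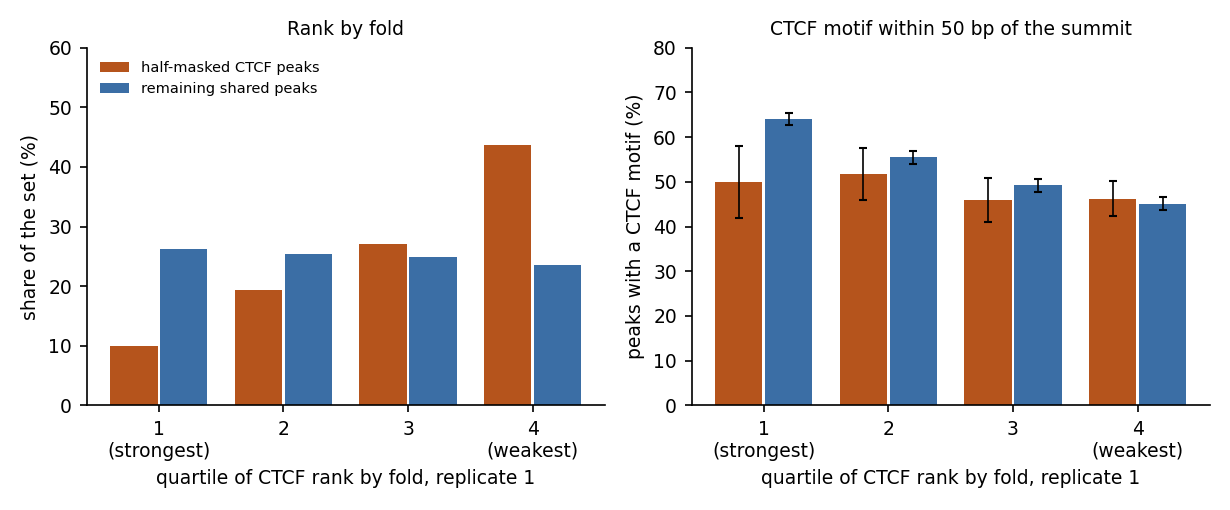
Left, the share of each set (%) in the 4 quartiles of the shared peaks by CTCF rank in replicate 1; right, the share of peaks (%) with a CTCF motif within 50 bp of the summit in each quartile, with 95% Wilson intervals. Half-masked sites are orange and remaining shared peaks blue. The half-masked sites gather in the weakest quartile (43.7%), and their motif share is lower in the strongest quartile (50.0% against 64%). The motif model was learned from strong remaining peaks, and the part of this in the quartile shares was not tested.

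The motif matches of half-masked sites mostly lay inside the repeat. At 577 of the 691 sites (83.5%) at least 10 of the 19 motif bases were masked, against 7.14% of the remaining peaks with a motif. Since the masked share of the peak defined the 2 sets, this contrast follows largely from the rule and is a description only. The best-scoring bases of the 2 models differed as well. The consensus of the model from remaining peaks was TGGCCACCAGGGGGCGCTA, and that of the model from half-masked sites, which is shifted by 1 position, was GAGGCCAGAAGAGGGCGCC, with the letters of the group 1 motif at its core.

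RAD21 peaks were much rarer on half-masked sites than on the remaining CTCF peaks. In TgN3840 replicate 2, 312 of 1452 half-masked sites (21.5%, 19.5 to 23.7) had a RAD21 peak, against 11522 of 19414 remaining peaks (59.3%, 58.7 to 60), a difference of -37.9 percentage points (-40.0 to -35.6). The share over all shared peaks was 56.7%. In the wild-type list, 373 half-masked sites (25.7%, 23.5 to 28) and 14074 remaining peaks (72.5%, 71.9 to 73.1) had a RAD21 peak, a difference of -46.8 (-49.1 to -44.4), where the share over all shared peaks was 69.2%. TgN3840 replicate 1, the shortest list with 4053 autosomal peaks, gave 64 half-masked sites (4.41%, 3.47 to 5.59) and 3622 remaining peaks (18.7%, 18.1 to 19.2), a difference of -14.2 (-15.3 to -12.9), beside 17.7% over all shared peaks. The 3 lists did not enter the choice of the sites. The direction was the same in each of them, although they differ in length and the wild-type library also in protocol and study, so that its genotype and its protocol cannot be told apart.

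The difference in RAD21 was also present within quartiles of CTCF rank by fold in replicate 1. Peaks inside a quartile were not matched further. In the strongest quartile by CTCF rank, 40.3% of half-masked sites (32.6 to 48.4) had a RAD21 peak in TgN3840 replicate 2, against 74.9% of remaining peaks (73.7 to 76.1). In the weakest quartile the shares were 13.7% (11.3 to 16.6) and 42.0% (40.6 to 43.5). In the wild-type list the shares in the strongest quartile were 45.8% at half-masked sites and 84.6% at remaining peaks, and in the weakest 18.8% and 58.9%. In none of the 4 quartiles did the intervals of the 2 sets overlap, in any of the 3 RAD21 lists, as the plot by rank quartile shows. In TgN3840 replicate 2 the share of half-masked sites in the strongest quartile (40.3%) and that of remaining peaks in the weakest (42.0%) had overlapping intervals. Averaged over the quartiles with equal weight, the differences were -32.9 percentage points in TgN3840 replicate 2, -41.9 in wild type and -11.7 in TgN3840 replicate 1.

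**Figure D2:**
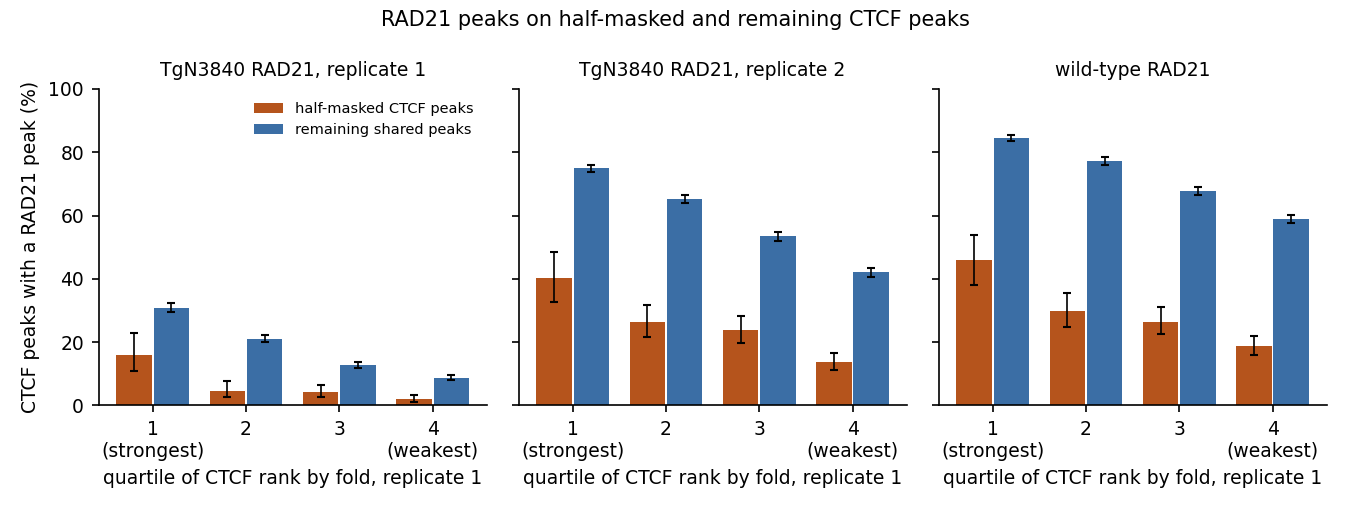
Share of CTCF peaks (%) that overlapped a RAD21 peak in each of 3 RAD21 lists, by quartile of CTCF rank in replicate 1, with 95% Wilson intervals. In every quartile and list the half-masked sites (orange, left bar) are below the remaining shared peaks (blue, right bar), for example 40.3% against 74.9% in the strongest quartile of TgN3840 replicate 2.

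The difference was present with and without a motif. Among sites with a motif, 20.3% of half-masked sites and 61.0% of remaining peaks had a RAD21 peak in TgN3840 replicate 2, and without a motif the shares were 22.6% and 57.5%. Half-masked sites were narrower peaks, with a median width of 215 bp against 318 bp, and a narrow peak overlaps others less often. Among peaks of at least 200 and under 300 bp the difference was -32.4 percentage points in TgN3840 replicate 2 and -40.5 in wild type. With a RAD21 summit within 100 bp of the CTCF summit in place of any overlap, it was -31.3 and -42.9. In 2 of the 3 lists the RAD21 peaks on half-masked sites were themselves weaker. Their median rank by RAD21 fold was 62.2 in TgN3840 replicate 2 (n = 312) and 62 in wild type (n = 373), against 43.5 (n = 11522) and 37.2 (n = 14074) for those on remaining peaks. In TgN3840 replicate 1 the order was the other way, with 43.5 on half-masked sites (n = 64) and 48.8 on remaining peaks (n = 3622). Of those 64 sites, the 21 that aligned to the shared sequence had a median of 55.9 and the 43 others one of 26.8. A site without a RAD21 peak is below the threshold of that list. In whole limbs, binding in fewer cells and weaker binding in all cells cannot be told apart.

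The share with RAD21 was lower among CTCF peaks with more masked bases. In TgN3840 replicate 2 it was 60.9% (60 to 61.8) of the 11207 shared peaks with under 10% masked bases and 60.6% (59.4 to 61.8) of the 6388 peaks from 10% to under 30%. It was 45.1% (42.9 to 47.4) of the 1819 peaks from 30% to under 50%, 22.0% (19.8 to 24.4) of the 1225 sites from 50% to under 80%, and 18.5% (14 to 24.1) of the 227 sites from 80% upward. The wild-type list gave 75.4%, 72.6%, 54.0%, 27.0% and 18.5% along the same steps. TgN3840 replicate 1 gave 20%, 18.8%, 10.1% (8.76 to 11.5), 3.76% (2.83 to 4.97) and 7.93% (5.07 to 12.2), so that it was higher again in the last step, where it was 4.57% (2.50 to 8.2) without 8 sites in the first 3.1 Mb of chromosome 9. The share of peaks that aligned to the group 1 or 2 consensus ran the other way, at 0.107%, 3.41%, 36.1%, 76.2% and 81.1%. The consensus was built from sites with at least 50% masked bases, so this rise follows at least in part from the choice of the sites. The first 2 steps did not differ in TgN3840 replicate 2 beyond their intervals, nor did the last 2.

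**Figure D3:**
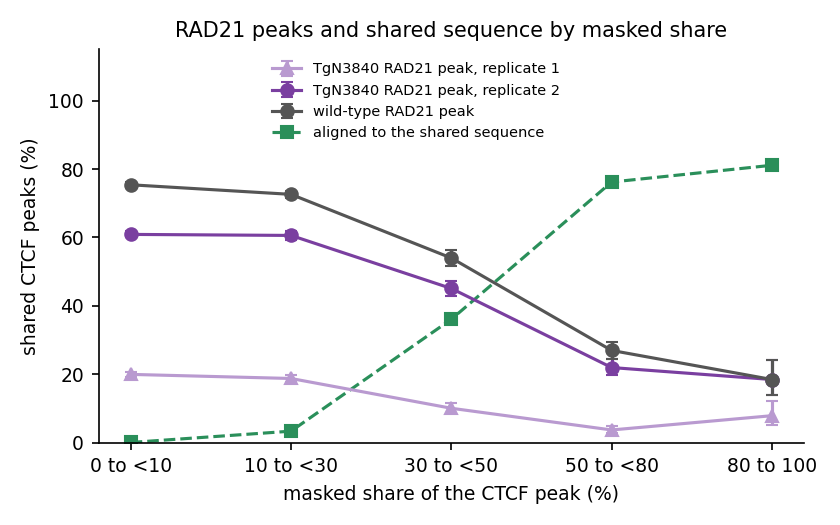
Share of shared CTCF peaks (%) with a RAD21 peak in TgN3840 replicate 1 (light purple), TgN3840 replicate 2 (purple) or wild type (grey), with 95% Wilson intervals, and share aligned to the consensus of group 1 or 2 (green, dashed), by masked share of the CTCF peak (%). In TgN3840 replicate 2 and wild type the RAD21 shares are 60.9% and 75.4% at the lowest masked share and 18.5% in both lists at the highest, where 81.1% of the peaks align and replicate 1 is at 7.93%.

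Within the half-masked sites, the RAD21 share was lowest at those that aligned to the shared sequence. In TgN3840 replicate 2, 183 of the 1117 aligned sites (16.4%, 14.3 to 18.7) had a RAD21 peak, against 129 of the 335 other half-masked sites (38.5%, 33.5 to 43.8), a difference of -22.1 percentage points (-27.8 to -16.6). In wild type the shares were 20.1% (17.9 to 22.6) and 44.2% (39.0 to 49.5). The same split was seen among the remaining peaks, where 27.2% of 886 aligned peaks (24.4 to 30.2) and 60.9% of 18528 others (60.2 to 61.6) had a RAD21 peak in TgN3840 replicate 2. Half-masked sites that did not align were still below the remaining peaks that did not align, by -22.4 percentage points (-27.5 to -17.0).

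The aligned and the other half-masked sites had median CTCF ranks of 65.2 and 64.9 in replicate 1 and of 61.5 and 50.3 in replicate 2. Their RAD21 shares differed within the quartiles of CTCF rank. In the strongest quartile by CTCF rank, 28.6% of 98 aligned sites (20.6 to 38.2) and 65.2% of 46 others (50.8 to 77.3) had a RAD21 peak in TgN3840 replicate 2. In the weakest quartile it was 9.75% of 482 aligned sites (7.41 to 12.7) and 26.3% of 152 others (20.0 to 33.8). Among peaks that did not align in the strongest quartile, half-masked sites (65.2%) and remaining peaks (75.6%) had overlapping intervals in TgN3840 replicate 2, with a difference of -10.4 percentage points (-24.9 to 1.73), whereas in wild type they were apart, at 69.6% (55.2 to 80.9) and 85.4% (84.4 to 86.4), with a difference of -15.8 (-30.2 to -4.43). Group 1 itself had RAD21 at 33 of 192 sites (17.2%) in TgN3840 replicate 2 and at 41 (21.4%) in wild type, and group 2 at 8 (18.6%) and 9 (20.9%) of 43. Group 8, whose median CTCF rank of 33.3 in replicate 1 was the strongest of the 9 groups, had RAD21 at 3 and 2 of its 8 sites.

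Most copies of the shared sequence in the genome had no CTCF peak, and the share with a peak was highest among copies with the highest motif scores. Without gaps, and at 60% identity or more over the 80 flanking bases, the autosomes held 24195 places like group 1, of which 611 (2.53%, 2.34 to 2.73) lay under a shared CTCF peak, and 84606 like group 2, of which 145 (0.171%, 0.146 to 0.202) did. A place could count in both groups. For group 1 the share was 0.165% (0.114 to 0.239) among 16943 copies below the motif threshold, 7.82% (6.48 to 9.40) at scores from 14 to 16 bits and 28.8% (25 to 32.9) among the 504 copies above 20 bits. For group 2 it was 0.0599% (0.0392 to 0.0916) below the threshold, 0.0133% (0.00453 to 0.0392) at scores from 12 to 14 bits, where 3 of 22511 copies had a peak, and 11% (8.58 to 14.1) above 20 bits. In each score range the copies of group 1 were more often under a peak than those of group 2, with intervals apart. Both consensus sequences were built from half-masked sites, 192 in group 1 and 43 in group 2, which are themselves shared CTCF peaks. Such sites can count among the copies under a peak, so the shares and the order of the groups are a description only. The copies had a median identity of 63.7% in group 1, close to the 60% required, and of 68.8% in group 2. Their median masked share was 65.7% and 100%. How many copies can be told apart by reads was not measured. The part of read placement in these shares, and in the base differences that follow, was not tested.

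The bases of the motif differed between copies with and without a peak. Positions are counted from 1 at the first capital of the motif. In group 1, a C at position 15 was present in 86.1% of the 611 copies under a peak, against 48.4% of the 23584 other copies, and a C at position 17 in 38.6% against 16.2%. The pair CG at positions 15 and 16 was found in 30.3% of copies under a peak and 5.38% of the others. In group 2 the same pair was found in 26.2% of 145 copies under a peak and 10.9% of 84461 others. In the motif model learned from remaining peaks, the C had a share of 79.8% at position 15 and of 56.2% at position 17.

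Motif matches in masked sequence were under a CTCF peak less often than matches of the same score elsewhere. On the autosomes, 334956 matches had at least 10 of their 19 bases masked and 2932 of them (0.875%) lay under a shared CTCF peak, against 20774 of 495477 other matches (4.19%). At scores from 14 to 16 bits the shares were 1.39% (1.26 to 1.53) in masked and 5.93% (5.71 to 6.15) in other sequence. Above 20 bits they were 27.0% of 3159 masked matches (25.5 to 28.5) and 73.7% of 7522 other matches (72.7 to 74.7). The intervals were apart in each of the 6 score ranges, as the plot by motif score shows. How many of these matches lie in sequence that occurs once in the reference was not measured. The part of read placement in the difference was therefore not tested. The shared CTCF peaks also include those that the motif model was learned from, and the effect of this on the shares was not tested.

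**Figure D4:**
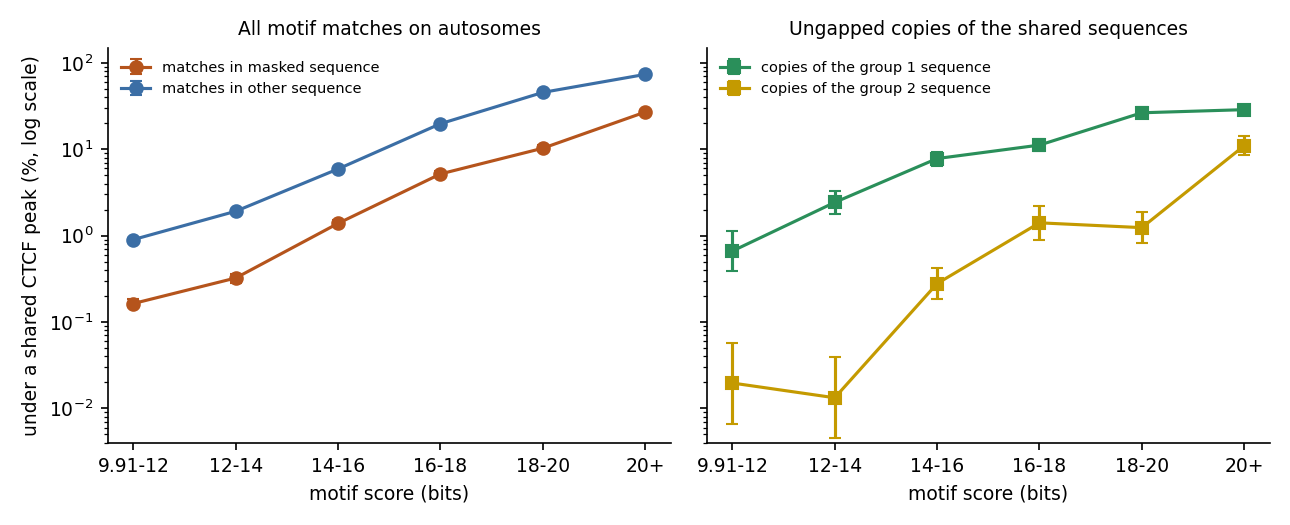
Share of motif matches (left) and of ungapped copies of the group 1 and group 2 sequence (right) that lay under a shared CTCF peak (%, log scale), by motif score in bits, with 95% Wilson intervals. All 4 lines are highest above 20 bits, where they reach 27.0% in masked sequence, 73.7% in other sequence, 28.8% for group 1 and 11% for group 2, but the line of group 2 is not higher at every step (1.41% from 16 to 18 bits and 1.24% from 18 to 20 bits).

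The strongest half-masked sites were a mixed set, given here with their folds in each list. The first by mean rank lay in an intron of Gm33838 on chromosome 9 (chr9:35305153-35305578), 37517 bp from the nearest protein-coding start, that of Rpusd4. Its CTCF folds were 23.4 and 23.7 in replicates 1 and 2, and its RAD21 folds were 24.6 and 21.9 in TgN3840 replicates 1 and 2 and 10.1 in wild type. It had no motif, did not align to the shared sequence, and repeated itself with a period of 58 bases. Of its windows of 50 bases, the length of the reads, 76.4% occurred once in the reference, and a window occurred up to 93 times. The part of read placement in its folds was not tested. The second, in an exon of Gm10717 (chr9:3025416-3025650), had CTCF folds of 19 and 18.9 and RAD21 folds of 18.7, 15.9 and 4.54 in the same order of lists, again without a motif and with a period of 58 bases. The 59 bases around both summits are shown on the plus strand, since they differ from the groups above.
chr9:35305353-35305411: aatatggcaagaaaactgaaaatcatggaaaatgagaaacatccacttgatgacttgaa
chr9:3025503-3025561: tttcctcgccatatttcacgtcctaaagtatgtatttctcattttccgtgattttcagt

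The second site was 1 of 8 half-masked sites in the first 3.1 Mb of chromosome 9, between 2999996 and 3036180, where no remaining shared peak was found. None of the 8 had a motif or aligned to the shared sequence. All 8 had a RAD21 peak in TgN3840 replicate 1, 7 in replicate 2 and 7 in wild type, so that CTCF and RAD21 were called together there without a motif. Between 34.3% and 93.2% of the 50-base windows of these peaks, the length of the reads, occurred once in the reference. A read from any other window has more than 1 place in the reference. No peak list of an input library was analysed here, and the part of read placement in these peaks was not tested. Without the 8 sites the RAD21 difference was -38.2 percentage points in TgN3840 replicate 2 and -47.1 in wild type.

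Among the other strong sites, RAD21 was present at some and absent at others. A site 7681 bp from a start of Tead4, a transcription factor of the Hippo pathway, had CTCF folds of 13.6 and 13.7, no RAD21 peak in either TgN3840 list and a wild-type RAD21 fold of 3.64. An intronic site of Snx31, a sorting nexin gene, had CTCF folds of 11.9 and 14.1 and RAD21 only in wild type, at 2.89. A site 48753 bp from March5, which encodes a mitochondrial ubiquitin ligase, had CTCF folds of 12.52 and 13.47 and RAD21 folds of 5.87, 9.55 and 6.51 in TgN3840 replicates 1 and 2 and wild type. The strongest group 1 site lay in an exon of Gm45605, 32004 bp from Slc47a1, with CTCF folds of 11.1 and 13.9 and RAD21 folds of 4.42, 6.45 and 7.78. It was the only group 1 site among the 12 strongest half-masked sites.

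The next sites had RAD21 in fewer lists. Intronic sites of Trp53inp1, a p53 target gene, and of Nt5c3, a pyrimidine nucleotidase gene, had CTCF folds of 10.6 and 14 and of 9.66 and 17.8, and RAD21 in TgN3840 replicate 2 (8.76 and 7.25) and wild type (7.27 and 5.41). Those of Ero1lb, an oxidase of the endoplasmic reticulum (12.45 and 11.77), and Tcea3, a transcription elongation factor gene (9.46 and 13.7), also had RAD21 in TgN3840 replicate 2, at 6.23 and 9.36, and in wild type, at 3.45 and 6.34. The intronic site of Nrd1, which encodes the metalloprotease nardilysin (11.2 and 12.3), and a site 35182 bp from Pum2, an RNA-binding protein gene (9.49 and 13.7), had no RAD21 peak in any list. The Nrd1 and Tcea3 sites had strong motifs of 20.9 and 21.5 bits, so a strong motif stood beside both outcomes. Their motifs with 20 bases on each side are shown to compare a site without RAD21 and a site with it.
Nrd1 intron, chr4:109036493-109036551: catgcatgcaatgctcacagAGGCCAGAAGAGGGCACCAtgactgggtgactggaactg
Tcea3 intron, chr4:136260543-136260601: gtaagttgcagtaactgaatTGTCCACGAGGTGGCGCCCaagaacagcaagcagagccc

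**Figure D5:**
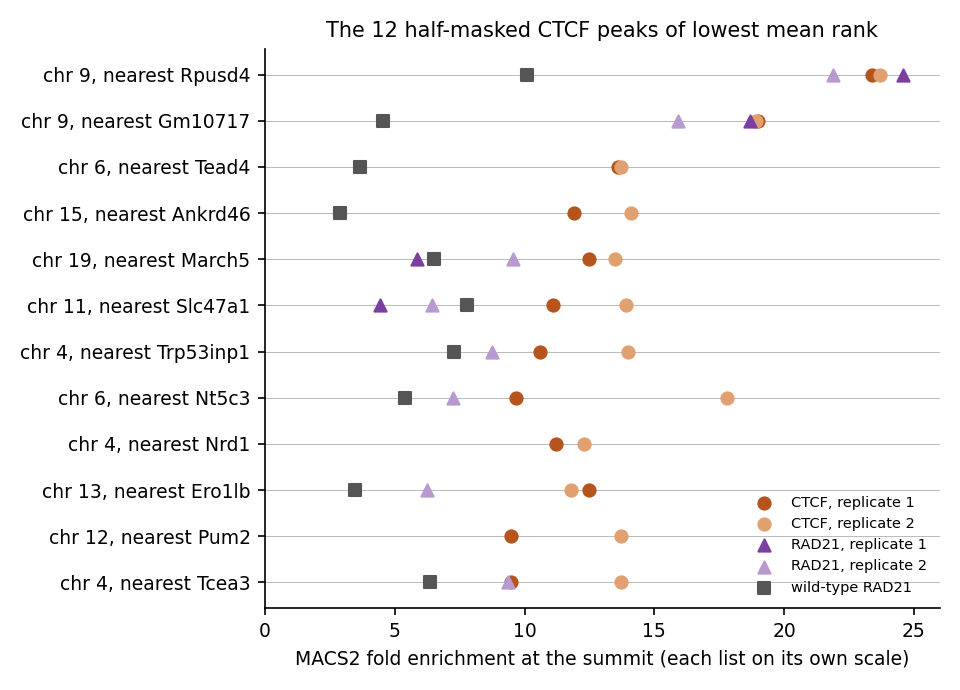
MACS2 fold (each list on its own scale) of the 12 half-masked CTCF sites of lowest mean rank, by nearest protein-coding gene: CTCF replicates 1 and 2 (circles), TgN3840 RAD21 replicates 1 and 2 (triangles) and wild-type RAD21 (squares); no symbol means no peak in that list. The sites nearest to Rpusd4 and Gm10717 have the highest folds (23.4 and 19 in CTCF replicate 1), and those of Nrd1 and Pum2 have no RAD21 symbol.

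Counted over all half-masked sites, 424 (29.2%, 26.9 to 31.6) had a RAD21 peak in at least 1 of the 3 lists and 60 (4.13%, 3.22 to 5.28) in all 3. Among the remaining peaks the shares were 74.5% (73.9 to 75.1) and 18.4% (17.9 to 19). Of the 312 half-masked sites with RAD21 in TgN3840 replicate 2, 261 also had it in wild type. Beside the sites already named, those of lowest mean rank with RAD21 in all 3 lists were 9099 bp from Srrm1, a splicing coactivator gene (CTCF folds 9.02 and 16.9, RAD21 5.42, 14.1 and 8.61), and in an intron of Gm21738 on chromosome 14 (10.5 and 11.3, RAD21 11, 10.2 and 4.23), which had the period of 58 bases and no motif. Of the 50-base windows of the Gm21738 site, 97.6% occurred once in the reference, a window occurred up to 63 times, and the part of read placement was not tested. The sites with RAD21 in none of the lists included a group 8 site 10394 bp from Scgb2a2, a secretoglobin gene (9.62 and 12.7), and the group 1 sites 16348 bp from Zfp184 (11 and 11.7) and 382871 bp from Rnf144b (11.1 and 11.5).

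Half-masked sites were rarer at promoters than remaining peaks. Their summit lay within 1 kb of a protein-coding transcript start at 59 of 1452 sites (4.06%, 3.16 to 5.21), against 2126 of 19414 remaining peaks (11%, 10.5 to 11.4), a difference of -6.89 percentage points (-7.89 to -5.67). Over all shared peaks the share was 10.5%. Among the 227 sites with at least 80% masked bases the difference was -2.12 (-5.10 to 2.23), an interval that covers 0. The median distance to a protein-coding start was 16.4 kb at half-masked sites and 17.5 kb at remaining peaks. Summits in introns were more frequent (53.9% against 43.8%, difference 10.0, 7.34 to 12.7), those in exons less frequent (4.48% against 11.1%, difference -6.67, -7.72 to -5.40), and 41.7% against 45.0% were intergenic. Near promoters the 2 sets differed less in RAD21. Within 1 kb of a start, 20 of 59 half-masked sites (33.9%, 23.1 to 46.6) and 39.5% of remaining peaks (37.4 to 41.6) had a RAD21 peak in TgN3840 replicate 2, a difference of -5.57 (-16.5 to 7.33) that the 59 sites could not resolve. Several of these 20 sites were among those without a motif in the first 3.1 Mb of chromosome 9, and the share without them was not computed. In wild type the shares were 35.6% and 57.4% (difference -21.8, -33.0 to -8.87). Beyond 1 kb they were 21% (18.9 to 23.2) and 61.8% (61.1 to 62.5) in TgN3840 replicate 2.

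The strongest promoter sites included several of the chromosome 9 repeats, at starts of the predicted genes Gm10717, Gm10722 and Gm10719. Among the others, a site 110 bp from a start of Tsfm, a mitochondrial translation elongation factor gene, had CTCF folds of 8.93 and 11.9 and RAD21 folds of 5.58 and 5.74 in TgN3840 replicate 2 and wild type. A site 482 bp from a start of Atp9a, which encodes a phospholipid flippase, had CTCF folds of 7.91 and 11.9, a motif of 19 bits and no RAD21 peak. Sites 569 bp from Fh1, the fumarate hydratase gene (8.19 and 8.09), and 805 bp from Zbed3 (6.18 and 12.1) had no RAD21 peak in the TgN3840 lists, and the Fh1 site had a wild-type RAD21 fold of 2.56.

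Half-masked sites near genes of limb development were counted against all autosomal protein-coding genes, of which 14.6% (3038 of 20807) had a half-masked site within 50 kb and 77.2% a remaining peak. Within 50 kb of the 11 HoxA genes, the 9 HoxD genes with Evx2, and the 8 autosomal genes of known limb boundary loci there was none, although remaining CTCF peaks lay near all 11, all 10 and 7 of these genes. The HoxA and the HoxD genes each lie in a single cluster, so that they are not separate cases. Of 35 genes of limb patterning, 28 had a remaining peak within 50 kb and 4 a half-masked site. These were Sall4, a zinc-finger regulator of limb outgrowth, which shares the Atp9a site; Lmx1b, the determinant of dorsal limb fate (CTCF folds 8.63 and 6.41); Pitx1, the determinant of hindlimb identity (7.77 and 5.69); and Fgf4, a growth factor of the apical ectodermal ridge (4.77 and 4.11). The Pitx1 site belonged to group 1, with a motif of 22.8 bits, 7698 bp from the nearest start. Of 9 autosomal genes for CTCF and cohesin, only Ctcf itself had a half-masked site within 50 kb, in an intron of Agrp (5.50 and 6.33). None of these 5 sites had a RAD21 peak in TgN3840 replicate 2 or in wild type, beside 21.5% and 25.7% of all half-masked sites.
Pitx1 locus, chr13:55843889-55843947: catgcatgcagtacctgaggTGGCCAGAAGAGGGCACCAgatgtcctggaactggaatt
Sall4 locus, chr2:168742870-168742928: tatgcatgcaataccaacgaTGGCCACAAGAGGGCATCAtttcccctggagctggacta

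The 2 motifs are printed to show the bases around the motif at genes of limb development. The Sall4 site was in none of the 9 groups and aligned with gaps at 76.5% identity. Its CTCF rank was 25.3 in replicate 1 and 9.92 in replicate 2, and that of the Pitx1 site was 27.3 and 78.8.

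The half-masked sites were unevenly spread over the autosomes. Chromosome 5 held 155 of them, 10.5% of its shared peaks, and chromosome 11 held 131 (8.16%), which came to 10.2 and 10.7 sites per 10 Mb. Over all autosomes the share was 6.96%. Chromosome 11 was nearer to it than chromosome 5, and had many shared peaks in all (1606). Chromosome 18 held 24 (3.77%) or 2.65 per 10 Mb, the fewest. Their median GC content was 46.8%, against 49.1% at remaining peaks, and their median number of CpG dinucleotides per 100 bases was 0.787 against 1.46.

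Most of the half-masked sites could be told apart by 50-base reads. In 1250 sites (86.1%) every 50-base window occurred once in the reference, against 96.5% of remaining peaks, and only 7 (0.482%) were under 50% unique, against 12 (0.0618%) of the remaining peaks. Among peaks with unique windows throughout, the RAD21 difference was -40.0 percentage points in TgN3840 replicate 2 and -48.9 in wild type. The reads had also been mapped to a custom genome that holds the insertion, with reads of duplicated sequence kept and placed at random. The paper describes keeping all reads for the custom genome only. The half-masked sites had to be called on mm10, so how far the calling itself set their high uniqueness was not tested. On the autosomes other than 2 and 10, whose coordinates the insertion leaves alone, 1203 of 1263 half-masked sites (95.2%, 93.9 to 96.3) were found in both custom-genome lists. The peaks called only there were of another kind. Of 1371 such peaks in replicate 1, 32.1% (29.7 to 34.6) were half-masked and 39.7% were under 50% unique, against 8.32% and 0.377% of the 19912 peaks called on both genomes, and replicate 2 gave 35.9% and 37.6%, against 10.7% and 0.349%. With the custom-genome lists throughout, the RAD21 difference was -29.7 percentage points in TgN3840 replicate 2 and -3.22 in TgN3840 replicate 1, where it had been -37.9 and -14.2 on mm10.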

How the data were processed

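CTCF and RAD21 peak lists of TgN3840 whole limbs (E12.5, 2 replicates each) and 1 wild-type RAD21 list were used. The authors ran MACS2 once per replicate with its defaults, and each deposited peak has a fold enrichment (a ratio) and −log10 p and q values. Tools in the submitters' processing notes include MACS2 2.1.1.20160309 and, for the reads, Bowtie2 2.3.4.1 and cutadapt 1.16. Read numbers and the MACS2 control are not given in the sources used here, so the depth is unknown. The peak lists hold no expression values, and the tissue label was not checked. Sequence and lower case come from RefSeq GRCm38.p6, where 33.5% of autosomal bases are masked; its masking program is not stated in the sources used here and its mask can differ from that of other mm10 copies. Genes are GENCODE M21. Python 3.11.15 scripts (numpy 2.4.6, pandas 2.3.3, numba 0.67.0, Biopython 1.88, matplotlib 3.10.9) were tested on simulated data. Shares have 95% Wilson intervals and differences Newcombe intervals; both cover counting error only, and sites are not replicates. The input libraries were not analysed here. The sites, gene lists and named regions (the 12 strongest, 8 promoter, up to 10 near listed genes, 6 with and 5 without RAD21, 6 of group 1, and 3 on each side of the threshold) were chosen with earlier results of these data known, by ranks and rules stated beside them. The gapped alignment, the width and uniqueness restrictions and the omission of the chromosome 9 start were chosen after seeing the data.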

Additional observations from a re-analysis of the deposited data

How the results depend on the processing

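Percentage-point differences below are half-masked minus remaining peaks, and a share or difference counts as moved when it left the 95% interval of the reported one. Of 71 such values, 36 stayed, 34 moved and 1 changed sign. The number of sites stayed within 1.5 times in 4 of 8 settings, and the difference in median rank within 0.964, the SD of its values in the 2 replicates, in 2 of 9. The RAD21 difference kept its sign throughout. In TgN3840 replicate 2 (-37.9) it was -26.2 with sites from 30% masked bases, -32.8 with the mask read within 50 bp of the summit, -27.7 with CTCF −log10 q of at least 10, -29.7 on the custom genome, -31.3 with RAD21 summits within 100 bp, -35.2 with RAD21 −log10 q of at least 5, -32.9 averaged over rank quartiles, -40.0 with unique windows and -32.4 for peaks of 200 to under 300 bp. In wild type (-46.8) it was -51.3 from 80% masked bases, -32.9 from 30%, -39.7 at the summit, -34.5 with CTCF q, -49.3 on the custom genome, -42.9 with summits, -41.9 over quartiles and -40.5 by width. In TgN3840 replicate 1 (-14.2) it was -9.84 from 80%, -12 from 30%, -12.3 with CTCF q, -3.22 on the custom genome, -11.2 with summits, -7.58 with RAD21 q, -11.7 over quartiles, -16 with unique windows and -11.1 by width. The cause of these moves was not tested.

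The motif difference (-6.10) was -10.0 on the custom genome, -0.0374 within 100 bp of the summit and 18.3 with a model learned from the half-masked sites, which fits that model to the set it is counted in. The reported model was likewise learned from part of the remaining peaks in which it is counted. The promoter difference (-6.89) was -2.12 (-5.10 to 2.23) from 80% masked bases, -8.25 with CTCF q, -3.69 within 5 kb and -5.61 by width. The difference in median CTCF rank (21.6) was 24.8 from 80%, 15.0 from 30%, 17.8 at the summit, 1.10 with CTCF q, 18.5 on the custom genome and 24.6 by q-value. The sites numbered 227 from 80%, 3271 from 30% and 181 with CTCF q, and the grouped share of motif sites (51.5%) was 21.4% at 70% identity and 32% over 60 bases.

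Reading only 1 CTCF replicate gave 1979 to 2747 sites and differences of -39.5 to -38.3 (RAD21, TgN3840 replicate 2), -49.0 to -47.2 (wild type), -13.8 to -13.4 (TgN3840 replicate 1), -6.46 to -5.18 (motif), -7.57 to -7.28 (promoter) and 22.5 to 25.4 (median rank). No paired analysis was possible because the comparisons are between peaks of the same lists, and no pairing of replicates between the antibodies is stated. Depth is unknown, so a site without a peak may only be below a list's threshold.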
